A study of Arabidopsis thaliana with 4 samples.

Results

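The suberin biosynthesis genes described here are GPAT5 (AT3G11430), CYP86A1 (AT5G58860), CYP86B1 (AT5G23190), FAR1 (AT5G22500), FAR4 (AT3G44540), FAR5 (AT3G44550), ASFT (AT5G41040) and KCS2 (AT1G04220). They were taken by gene code from the count tables, as 8 of 32833 gene rows, and the rule itself uses no measured value. Suberin is a polyester of fatty acid derivatives, glycerol and ferulic acid that is laid down on the inner side of the cell wall. In the young root it is known above all from the endodermis, where it follows the Casparian strip, a ring of lignin positioned by CASP proteins, as the cells move away from the root tip. Among these 8 genes, KCS2 encodes a fatty acid elongase, CYP86A1 and CYP86B1 encode fatty acid omega-hydroxylases, FAR1, FAR4 and FAR5 encode fatty acyl reductases that make alcohols, GPAT5 encodes an acyltransferase that joins acyl chains to glycerol, and ASFT encodes the feruloyl transferase that adds the aromatic part.

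The data were UMI counts (unique molecular identifiers, 1 per captured transcript) from droplet single-cell sequencing of root protoplasts of Arabidopsis thaliana, all diploid plants of transgenic lines. Tips of primary roots were harvested at 4 to 5 days after germination from seedlings grown on MS medium. The 4 groups were the lines pWER:GFP, pCORTEX:GFP and pSCR:GFP, in which GFP is driven by the promoter in the name of the line, and the enhancer trap line PET111, whose reporter row is YFP. WER is known from the epidermis and the lateral root cap, and SCR from the endodermis and its initials. Each line had 1 library and was its own batch, so the effect of a line and that of its batch cannot be told apart, no test between lines exists, and intervals below cover counting error only. Where 4 values follow each other, they are those of pWER:GFP, then pCORTEX:GFP, then PET111, then pSCR:GFP.

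Barcodes with at least 2000 UMIs and at most 10% organelle UMIs were kept, which left 6360, 7552, 3516 and 6830 cells of 9813, 11731, 9745 and 10534 barcodes. Median depth was 10742.5, 14322.5, 15354.5 and 9532 UMIs per kept cell, and between 27 and 35 barcodes were shared by any pair of libraries. Levels are in CPM (UMIs per 1000000 UMIs of a group of cells), and a level of 3 UMIs, used as the floor, equals between 0.010 and 0.020 CPM over the kept cells of a library. Clusters were built in each library without the 8 genes and named from marker lists. Endodermis-like clusters held 369, 275, 276 and 333 cells, and all 10 endodermis markers (CASP1 to CASP5, MYB36, ESB1, PER64, SGN3 and SGN1) were at least 2-fold higher there than in the other kept cells of every library. Unnamed clusters held 36.5%, 38.3%, 32.6% and 46.8% of the kept cells.

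ASFT was the member that these root tips expressed at a level far above the others. Of 28257 UMIs of the 8 genes in kept cells, 27783 were ASFT, or 98.3%. FAR5 followed with 334 UMIs and CYP86B1 with 70, and the other members had 33 (FAR1), 13 (FAR4), 13 (KCS2), 10 (GPAT5) and 1 (CYP86A1). The kit reads transcript 3′ ends, so these UMI totals were not divided by gene length.

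The elongase gene KCS2 was seen 6, 3, 4 and 0 times in the 4 libraries. The omega-hydroxylase gene CYP86A1 was seen 0, 0, 0 and 1 times. These values sit at the floor of 3 UMIs or close to it: the 0 of CYP86A1 in 7552 pCORTEX:GFP cells allows a share of up to 0.0397% of cells with a UMI, and the 0 in 3516 PET111 cells allows up to 0.0853%. GPAT5, the glycerol acyltransferase gene, had 7, 0, 1 and 2 UMIs, each in a separate cell. The 7 GPAT5 cells of pWER:GFP had a median depth of 113684 UMIs, against 10723 UMIs for the cells without GPAT5. Depth moved with GPAT5 detection there, and its part was not tested.

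CYP86B1, whose product hydroxylates very long chains, had 5, 35, 18 and 12 UMIs, or 0.025, 0.117, 0.118 and 0.079 CPM. The pWER:GFP value was the lowest, with a counting interval of 0.0081 to 0.058 CPM that does not meet the interval of 0.082 to 0.163 CPM in pCORTEX:GFP.

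Of the reductase genes, FAR1 had 13, 4, 5 and 11 UMIs and FAR4 had 3, 1, 1 and 8. All 8 FAR4 UMIs of pSCR:GFP lay in 1 cell. FAR5 had 68, 110, 78 and 78 UMIs, or 0.337, 0.369, 0.513 and 0.516 CPM. FAR5 was therefore close to even over the libraries, but it was concentrated in few cells: 17, 36, 24 and 16 cells carried it, and the 5 highest of them held 46, 54, 41 and 55 of its UMIs. FAR4 and FAR5 are neighbouring paralogues, and reads that fit both could have been split or dropped in the authors' counting, so the division between them is uncertain.

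ASFT measured 13.6 (13.1 to 14.1), 56.9 (56.0 to 57.8), 36.0 (35.1 to 37.0) and 17.2 CPM (16.6 to 17.9). A UMI of ASFT was found in 252, 876, 361 and 345 cells, or 3.96%, 11.6%, 10.3% and 5.05% of kept cells. Both the level and the share were high in pCORTEX:GFP and PET111 and low in pWER:GFP and pSCR:GFP. Thinned to 2000 UMIs per cell, the shares were 2.15%, 5.88%, 6.26% and 2.80%, so the same 2 libraries stayed on the high side while pCORTEX:GFP and PET111 changed places.

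**Figure D1:**
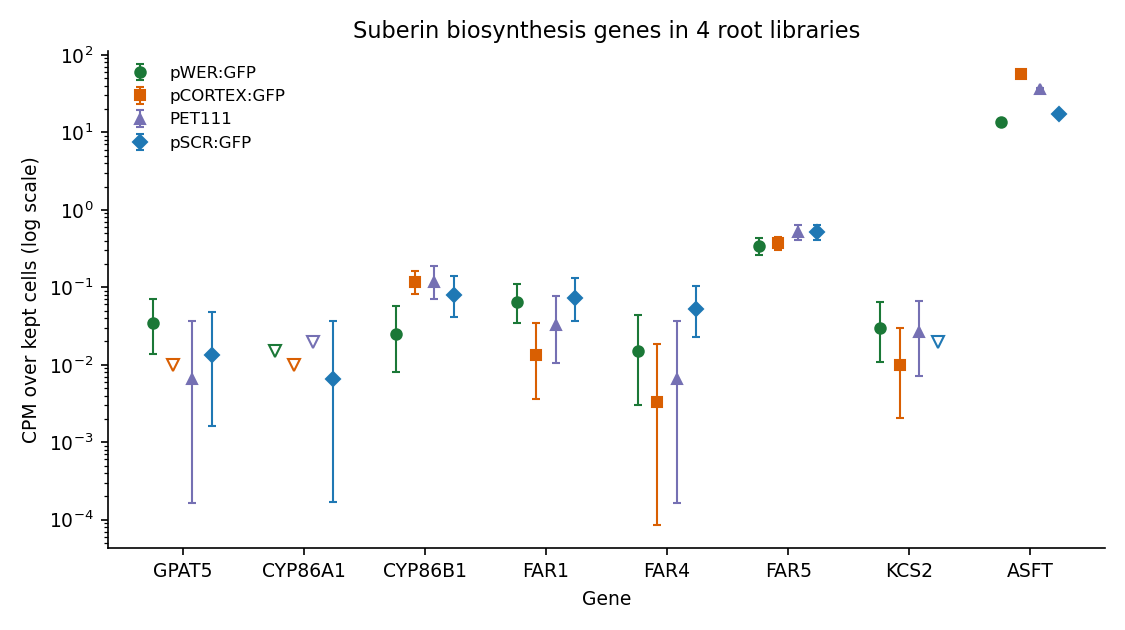
Level of each of the 8 genes in kept cells of the 4 libraries, in CPM on a log axis, with exact Poisson 95% intervals; open triangles mark genes with 0 UMIs, drawn at the 3-UMI floor. ASFT lies between 13.6 and 56.9 CPM, FAR5 between 0.337 and 0.516 CPM, and the other members lie below both.

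ASFT was highest in endodermis-like cells in all 4 libraries. Endodermis-like cells had 216 CPM in pWER:GFP (208 to 225), 1013 in pCORTEX:GFP (994 to 1033), 776 in PET111 (755 to 797) and 193 in pSCR:GFP (184 to 202), against 0.697, 23.6, 1.52 and 5.34 CPM in all other kept cells. On the log2 scale with 5 CPM added to both sides, the difference averaged 5.40 ± 1.10 (SD, n = 4 libraries), with a range of 4.26 to 6.91. ASFT ranked 29, 67, 33 and 43 by this ratio among 22158, 21979, 21201 and 21668 genes with at least 10 UMIs. By level inside the endodermis-like cells it ranked 837, 132, 176 and 888.

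In each library ASFT was the 1 member called at least 2-fold higher in endodermis-like cells, of 3, 3, 3 and 4 members with the 10 UMIs needed for the comparison. With 5 CPM added to both sides, a gene under 5 CPM in the class cannot reach 2-fold. No other member passed 2.69 CPM there, so ASFT was the only member that could be called. Over all genes so compared, 5.61%, 6.32%, 8.3% and 5.18% were called higher and 10.8%, 16.6%, 18% and 12.5% were called lower. The median log2 ratio of the members compared was -0.02, 0.61, 0.49 and 0.05, against -0.09, -0.24, -0.19 and -0.15 for all genes compared. With so few members above the minimum, the list as a whole carries no more than these values.

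Outside the endodermis-like clusters, the named classes had ASFT levels between 0 and 10.8 CPM, and their order changed from library to library. The highest of these classes was phloem-like in pWER:GFP at 1.12 CPM, hair cell-like in pCORTEX:GFP at 10.8 CPM, xylem-like in PET111 at 7.31 CPM and hair cell-like in pSCR:GFP at 3.28 CPM. In pWER:GFP, pCORTEX:GFP and PET111 the highest of these classes was not set apart from the next by its counting interval, which ran over 0.135 to 4.03, 9.03 to 12.7 and 3.78 to 12.8 CPM. The 2 hair cell-like values rested on few cells: 3 cells held 89 of the 136 UMIs in pCORTEX:GFP and all 30 UMIs in pSCR:GFP.

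Hair cells, which are not known for ASFT, served as the comparison class for the share of cells with a UMI. A UMI of ASFT was found in 50.7%, 90.9%, 89.5% and 48.6% of endodermis-like cells, against 1.02%, 6.55%, 1.30% and 1.52% of hair cell-like cells. Median depths were 18457, 31598, 17208.5 and 21831 UMIs in endodermis-like cells and 9490, 42282, 34517 and 23107 UMIs in hair cell-like cells. The share was thus higher in the endodermis-like cells in all 4 libraries, including pCORTEX:GFP, PET111 and pSCR:GFP, in which the hair cell-like cells were deeper. Of the kept cells, 27, 111, 25 and 79 carried UMIs of at least 3 hair cell and at least 3 endodermis markers, and 1, 24, 2 and 9 of these were hair cell-like. Without them, a choice made after seeing the data, hair cell-like cells had 4, 5, 0 and 1 ASFT UMIs, or 0.221, 0.459, 0 and 0.117 CPM, in 1.03%, 2.44%, 0% and 0.532% of cells, where the 0 of 75 cells in PET111 allows a share of up to 4.0%. Most ASFT UMIs lay in cells with endodermis markers, so leaving out cells by those markers lowers ASFT by itself. These values therefore do not show that hair cells lack ASFT. The part of mixed barcodes in the other classes was not tested.

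**Figure D2:**
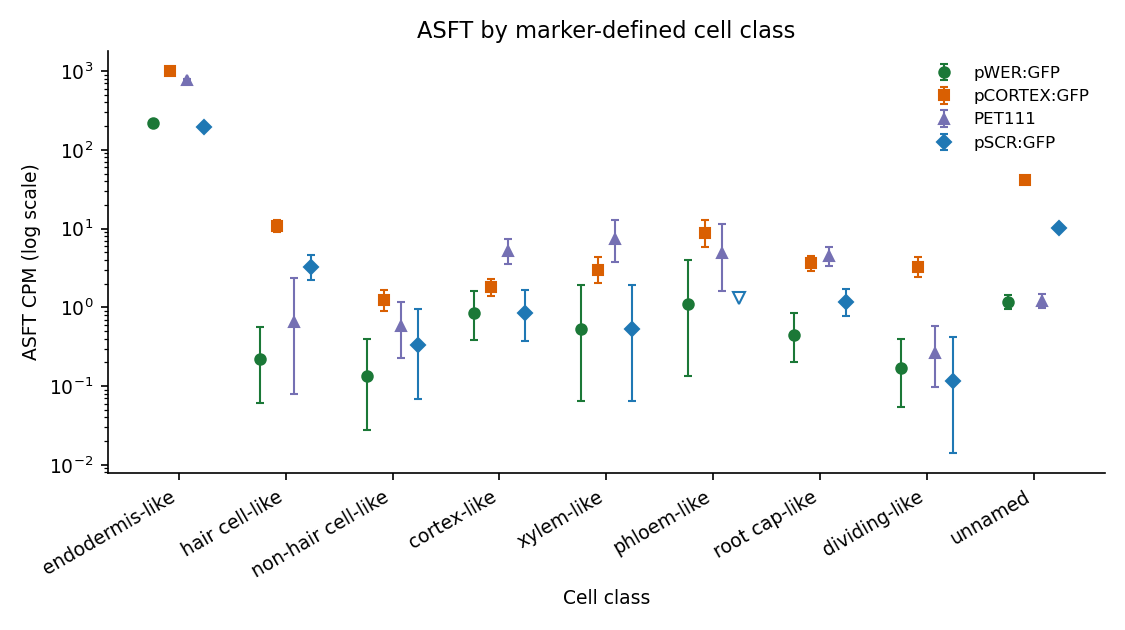
ASFT level in each marker-named cell class and in the unnamed clusters of the 4 libraries, in CPM on a log axis, with exact Poisson 95% intervals; an open triangle marks 0 UMIs at the 3-UMI floor. Endodermis-like cells sit between 193 and 1013 CPM, above every other class of the same library.

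The unnamed clusters held 7239 of the 27783 ASFT UMIs, or 26.1%, and endodermis-like clusters held 71.6%. Most of the unnamed share came from a pair of clusters whose best-scoring class was endodermis but which did not pass the naming rule. The first, with 401 cells of pCORTEX:GFP, was led by AT4G11290 and RCI3 and had 362 CPM of ASFT, 1735 CPM of CASP1 to CASP5 together and 824 CPM of MYB36. The second, with 278 cells of pSCR:GFP and a median depth of 2747.5 UMIs, was led by ASFT itself, RALF1 and LTPG15, and had 334 CPM of ASFT and 3522 CPM of CASP genes. With these clusters added to the endodermis-like cells, ASFT stood at 606 CPM against 2.65 CPM in pCORTEX:GFP and at 215 CPM against 0.981 CPM in pSCR:GFP.

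Within the endodermis-like class, ASFT varied between cells. Its median per cell was 9.94, 876, 632 and 0 CPM, and the highest cell had 3982, 5727, 3779 and 3200 CPM. The measured level of the median cell was thus low or 0 in pWER:GFP and pSCR:GFP, and high in pCORTEX:GFP and PET111. A 0 in a single cell, at median depths of 18457 and 21831 UMIs in the first 2, does not show absence. The make-up of the class differed as well: 240 of its 369 cells in pWER:GFP were in a cluster with 1356 CPM of CASP genes. In pCORTEX:GFP it was a single cluster with 48314 CPM. The part of this make-up was not tested.

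The other members were rare in endodermis-like cells. CYP86B1 had 4, 27, 14 and 5 UMIs there, or 0.331, 2.69, 2.07 and 0.521 CPM, against 0.0053, 0.028, 0.028 and 0.049 CPM in all other kept cells. In total 50 of its 70 UMIs were endodermis-like and 11 were xylem-like. Xylem-like cells had 0.267, 0.201, 1.83 and 1.34 CPM, from 1, 2, 3 and 5 UMIs. In pSCR:GFP that level was above the endodermis-like one, with counting intervals that met (0.434 to 3.12 and 0.169 to 1.22 CPM). Its raw ratio of endodermis-like over other cells was 62.6 (6.20 to 3085), 96.8 (42.8 to 247), 75.02 (23.6 to 313) and 10.5 (2.63 to 38.5). The lower bound of each of these counting intervals is above 2. With 5 CPM added the gene did not reach 2-fold in any library, which a level under 5 CPM cannot do.

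KCS2 had 12 of its 13 UMIs in endodermis-like cells. All 12 lay in the clusters with the highest CASP levels, 5 UMIs in pWER:GFP, 3 in pCORTEX:GFP and 4 in PET111. In contrast, GPAT5, FAR1 and CYP86A1 had 0 UMIs in endodermis-like cells of all 4 libraries, which allows up to 0.248, 0.299, 0.443 and 0.312 CPM. FAR4 had 1, in PET111. GPAT5 had 7 of its 10 UMIs, FAR1 23 of 33 and FAR4 10 of 13 in unnamed clusters, and the CYP86A1 UMI was in a cortex-like cell.

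FAR5 was highest in root cap-like cells in all 4 libraries. Root cap-like clusters, named from SMB, BRN1, BRN2 and other genes, held 63 of 68, 87 of 110, 74 of 78 and 78 of 78 of its UMIs. The FAR5 level there was 3.13, 3.80, 6.18 and 3.37 CPM, against 0.028, 0.084, 0.029 and 0 CPM in all other kept cells. Endodermis-like cells had 0.165, 1.20, 0.295 and 0 CPM, or 2, 12, 2 and 0 UMIs.

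With 5 CPM added, the log2 ratio of root cap-like over other cells was 0.69, 0.79, 1.15 and 0.74 for FAR5. It passed 2-fold in PET111 and stayed under it in the others, where FAR5 was under 5 CPM in the class and so could not reach it. Over all genes compared, 7.69%, 9.09%, 10.1% and 5.98% were called higher in root cap-like cells and 8.47%, 7.06%, 9.79% and 8.12% were called lower. The FAR5 UMIs came from a small number of root cap-like cells, 13, 26, 21 and 16 of 1375, 1963, 1111 and 1646.

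In each library 1 root cap-like cluster held most of the FAR5 UMIs. This was a cluster of 516 cells in pWER:GFP with 61 UMIs (8.48 CPM), 1 of 410 cells in pCORTEX:GFP with 80 UMIs (16.5 CPM), 1 of 24 cells in PET111 with 58 UMIs (103 CPM) and 1 of 62 cells in pSCR:GFP with 75 UMIs (49.8 CPM). The first 3 of these clusters shared AT1G50060 as their leading gene, and EFE, which makes ethylene, and the small peptide gene RTFL9 were among the 5 leading genes of the pCORTEX:GFP and PET111 clusters. In PET111, 13 of the 24 cells had a FAR5 UMI.

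**Figure D3:**
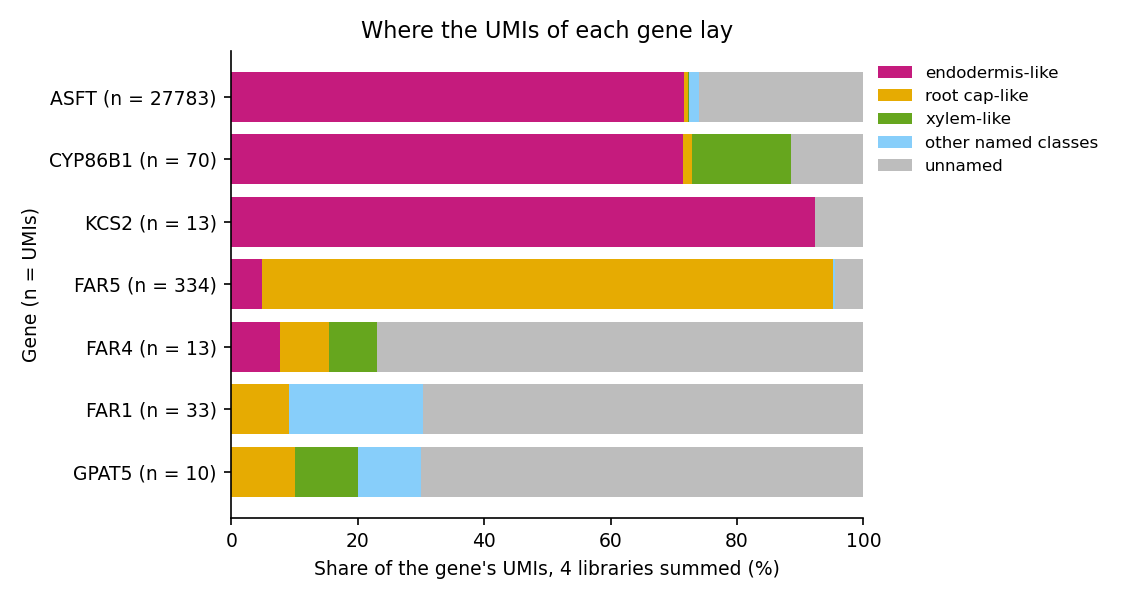
Share of each member's UMIs, in percent summed over the 4 libraries, that falls into each cell class, with the number of UMIs beside each gene; CYP86A1, with 1 UMI, is not drawn. ASFT (71.6%), CYP86B1 (71.4%) and KCS2 (92.3%) are mostly endodermis-like, FAR5 (90.4%) is mostly root cap-like, and GPAT5, FAR1 and FAR4 are mostly in unnamed clusters.

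ASFT was set beside the CASP genes, which mark Casparian strip formation, the step before suberin in endodermal development. Endodermis-like cells with a CASP UMI had 230, 1013, 776 and 210 CPM of ASFT. Cells of the class without one were present in pWER:GFP (47 cells, 7.99 CPM) and pSCR:GFP (27 cells, 2.50 CPM) alone, where they rested on 6 and 2 UMIs. The log2 ratio with 5 CPM added averaged 4.51 over these 2 libraries (4.18 and 4.84). Median depth was 21476.5 UMIs with a CASP UMI and 3155 UMIs without one in pWER:GFP, and 22186.5 UMIs with and 20717 UMIs without one in pSCR:GFP, so depth moved with the split in pWER:GFP and its part there was not tested.

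Over all kept cells, ASFT stood between 0.256 and 1.26 CPM where no CASP UMI was found and between 0.540 and 1.07 CPM in cells with up to 100 CPM of CASP genes. It reached 54.9, 61.2, 34.8 and 32.8 CPM in cells with 100 to 1000 CPM of CASP genes. In cells with 1000 to 10000 CPM it measured 525, 593, 627 and 310 CPM. From 100 CPM of CASP genes up to 10000 CPM, ASFT thus went up with the CASP level in every library. In a shallow cell 1 CASP UMI already passes 100 CPM, so depth moved with these steps. Median depth was 45324.5, 60598, 44757 and 26280.5 UMIs in cells with CASP UMIs up to 100 CPM. At 100 to 1000 CPM it was 5058.5, 6486.5, 7668.5 and 4708 UMIs. The part of depth was not tested.

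Above 10000 CPM of CASP genes the libraries parted. At 10000 to 50000 CPM, ASFT measured 364, 1539, 1752 and 396 CPM, and above 50000 CPM it measured 504, 450, 435 and 530 CPM. The cells with the most CASP RNA therefore had less ASFT than the step before in pCORTEX:GFP and PET111, and more in pWER:GFP and pSCR:GFP. The highest step held 30, 126, 79 and 47 cells. Thinned to 2000 UMIs, the share of cells with an ASFT UMI was 44.1%, 84.0%, 86.7% and 43.2% at 10000 to 50000 CPM, and 33.3%, 45.2%, 46.8% and 36.2% above 50000 CPM. The share was thus lower at the highest step in all 4 libraries, beyond the counting intervals in pCORTEX:GFP and PET111. CYP86B1 had its largest numbers at the same step as ASFT in pCORTEX:GFP and PET111, with 23 and 10 UMIs (3.72 and 6.53 CPM) at 10000 to 50000 CPM of CASP genes. In the other libraries CYP86B1 had 4 UMIs or fewer at each step.

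**Figure D4:**
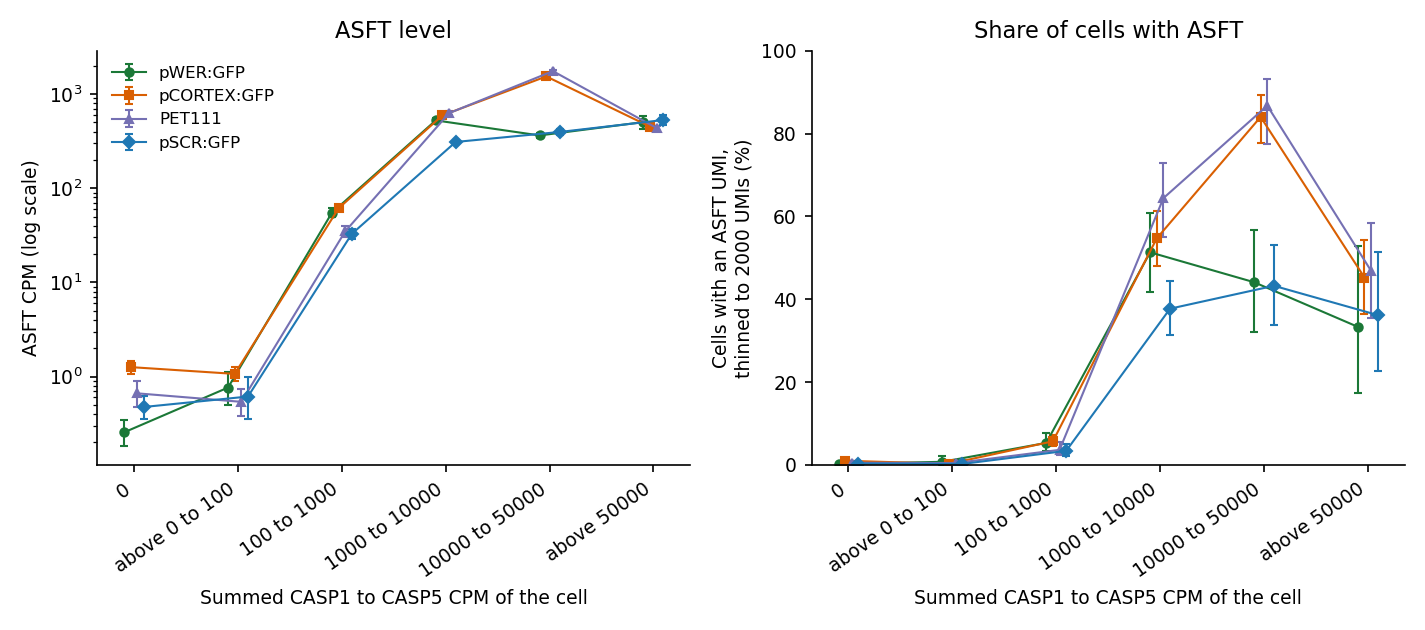
ASFT level in kept cells grouped by the summed CPM of CASP1 to CASP5 in the cell, 1 line per library, with exact Poisson 95% intervals on a log axis (left), and the share of these cells with an ASFT UMI after thinning to 2000 UMIs, in percent with exact Clopper-Pearson 95% intervals (right). ASFT is at or under 1.26 CPM in the 2 lowest groups and between 310 and 627 CPM at 1000 to 10000 CPM of CASP genes in all 4 libraries, and the libraries part above 10000 CPM.

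Cells that carried UMIs of both MYB36, the transcription factor that switches on CASP genes, and a CASP gene numbered 379, 984, 386 and 529. They held 95.7%, 97.1%, 96.7% and 94.5% of all ASFT UMIs, at 177, 310, 291 and 156 CPM. Cells with a CASP UMI and no MYB36 UMI had 2.52, 2.76, 1.99 and 3.72 CPM of ASFT. Cells with MYB36 alone had 0.808, 1.71, 1.18 and 1.46 CPM, and cells with neither had 0.219, 1.22, 0.620 and 0.376 CPM. Median depth was 19827, 32155, 23813 and 13733 UMIs in cells with both and 10327.5, 11683, 13111 and 9484.5 UMIs in cells with neither. Depth thus moved with these groups, and its part was not tested.

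Clusters within the endodermis-like class differed by library. In PET111 the cluster with 62277 CPM of CASP genes had 876 CPM of ASFT, against 670 CPM in the cluster with 3982 CPM of CASP genes. In pSCR:GFP the cluster with 57958 CPM of CASP genes had 898 CPM, against 127 CPM in the cluster with 5004 CPM. In pWER:GFP the order was the opposite, with 189 CPM in the cluster with 20194 CPM of CASP genes and 228 CPM in the cluster with 1356 CPM. The pCORTEX:GFP class was a single cluster, with 48314 CPM of CASP genes.

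Cells with a UMI of any member numbered 289, 916, 393 and 376, or 4.54%, 12.1%, 11.2% and 5.51% of kept cells. A second member was seen in 7, 35, 17 and 6 of them, and no cell had 3. CYP86B1 and ASFT made up most of these pairs. ASFT was present in 4 of 5, 28 of 31, 12 of 14 and 6 of 10 cells with a CYP86B1 UMI, or 80%, 90.3%, 85.7% and 60.0%, against 3.90%, 11.3%, 9.97% and 4.97% of cells without one. The median depth of CYP86B1 cells was 14045, 31598, 27148 and 10155 UMIs, above the 10741, 14194, 15342.5 and 9532 UMIs of the other cells, and thinning left too few CYP86B1 cells, 1 or 2 per library, to repeat the count.

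FAR5 and ASFT were seen together in 2 of 17, 6 of 36, 3 of 24 and 0 of 16 FAR5 cells. Across kept cells the correlation of ASFT with CYP86B1 was 0.10, 0.22, 0.14 and 0.07, and that with FAR5 was between -0.02 and 0.00. The points of these correlations share a library and range widely in depth, and with counts this sparse the values describe the cells without more weight. Of the 28 pairs of members, 21, 15, 21 and 21 had a defined correlation.

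The genes most like ASFT across kept cells, by mean Pearson correlation of ln(1 + UMIs per 10000) over the 4 libraries among 17558 genes seen in at least 1% of cells in each library, were AT3G22620 (0.77 ± 0.07, SD), LTPG15 (AT2G48130, 0.76 ± 0.06) and UCC1 (AT2G32300, 0.74 ± 0.08). LTPG15 encodes a lipid transfer protein anchored to the membrane and UCC1 a copper-binding uclacyanin. The genes most like FAR5 were AT2G28870 (0.31 ± 0.05), AT5G45880 (0.24 ± 0.11) and RTFL9 (0.23 ± 0.06). CYP86B1 was most like AT1G28815 (0.16 ± 0.08), AT2G45040 (0.15 ± 0.05) and AT3G49330 (0.15 ± 0.05).

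The lists of the rarest members rest on a handful of UMIs. They were AT2G41082, AT1G04647 and AT1G16480 for GPAT5, AT5G39450, AT3G46500 and AT5G66770 for CYP86A1, EGY2, AT5G27110 and AT3G16750 for FAR1, MC8, AT2G25125 and MT1C for FAR4, and AT2G41870, AT3G55230 and SCPL13 for KCS2. By the mean over the 8 members, the leading genes were AT3G22620, UCC1, LTPG15, AT4G05170, AT5G23920, AT2G31730, CASP5, AT1G28815, AT3G22600 and MYB36, with mean correlations between 0.126 and 0.139.

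A wider list of 41 genes of suberin synthesis, export and control showed the surroundings of the 8 members. Of these, 35, 34, 32 and 31 had the 10 UMIs needed. At least 2-fold higher in endodermis-like cells were 13, 16, 16 and 12 of them (37.1%, 47.1%, 50.0% and 38.7% of those compared, beside the 5.61%, 6.32%, 8.3% and 5.18% of all genes given above), and 4, 2, 3 and 4 were at least 2-fold lower (11.4%, 5.88%, 9.38% and 12.9% of those compared, beside 10.8%, 16.6%, 18% and 12.5% of all genes). Their median log2 ratio was 0.44, 0.94, 1.03 and 0.70.

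Phenylpropanoid enzymes, which supply the ferulate that ASFT uses and also the lignin of the Casparian strip, were the most uniform group. Of 9 genes, 7 were called higher in all 4 libraries and the other 2, C4H and PAL4, in 3 and 2. PAL2, which starts the pathway from phenylalanine, measured 122, 1116, 1374 and 267 CPM in endodermis-like cells, against 12.7, 48.2, 33.1 and 19.2 CPM in other cells. CCOAOMT1, which methylates caffeoyl-CoA to feruloyl-CoA, measured 3200, 10072, 6899 and 3952 CPM, against 447, 1122, 497 and 662 CPM. The mean log2 ratio was 3.98 ± 1.02 for PAL2 and 3.08 ± 0.52 for CCOAOMT1, and PAL1, 4CL1, 4CL2, HCT and C3H1 had means of 2.80, 2.67, 2.46, 2.97 and 2.37 (n = 4 libraries each).

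Of 12 acyl and glycerol enzyme genes, KCS1 and KCS20 were called higher in all 4 libraries. Both encode elongases of the same family as KCS2. KCS1 measured 65.1, 184, 205 and 97.3 CPM in endodermis-like cells, against 5.34, 3.90, 1.72 and 7.78 CPM in other cells. KCS20, the closest paralogue of KCS2, measured 118, 180, 250 and 128 CPM, against 14.8, 40.1, 31.1 and 17.7 CPM. KCS2 itself had no more than 0.591 CPM in the class, far under either paralogue. GPAT7, a relative of GPAT5, had 20 UMIs in all.

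Among lipid transfer proteins and GDSL esterases, LTPG15 was higher in all 4 libraries, with 91.6, 389, 328 and 126 CPM in endodermis-like cells against 0.158, 18.7, 0.585 and 2.79 CPM in other cells. The esterase genes GELP22 and GELP49, of a large family in which some members assemble the suberin polymer, were lower in all 4, with mean log2 ratios of -3.25 ± 0.61 and -1.49 ± 0.38. GELP38 was called higher in pCORTEX:GFP alone, and GELP51 and GELP96, with 12 and 49 UMIs, were not called. No gene of the 5 ABCG transporters was called higher. ABCG1 was lower in 3 libraries, with 6.12, 2.59, 2.07 and 10.4 CPM in endodermis-like cells against 40.4, 9.68, 18.6 and 86.9 CPM in other cells, and ABCG2, ABCG6, ABCG11 and ABCG20 had 24, 71, 3 and 3 UMIs.

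Of 9 regulator genes, MYB9 and MYB92, transcription factors that switch on suberin genes, were called higher in all 4 libraries. MYB9 measured 7.52, 161, 129 and 8.43 CPM in endodermis-like cells, against 0.053, 0.212, 0.055 and 0.148 CPM in other cells. MYB92 measured 15.5, 58.5, 77.7 and 15.3 CPM, against 0.375, 2.52, 1.79 and 0.488 CPM. Both were high in pCORTEX:GFP and PET111 and low in pWER:GFP and pSCR:GFP, the split that ASFT also showed. MYB39, a suberin regulator of the endodermis, was called higher in pCORTEX:GFP and PET111, NAC046 was lower in pWER:GFP and pSCR:GFP, and MYB41, MYB53, MYB93 and MYB107 had 28, 86, 80 and 32 UMIs and were not called. All 80 MYB93 UMIs were in endodermis-like cells.

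**Figure D5:**
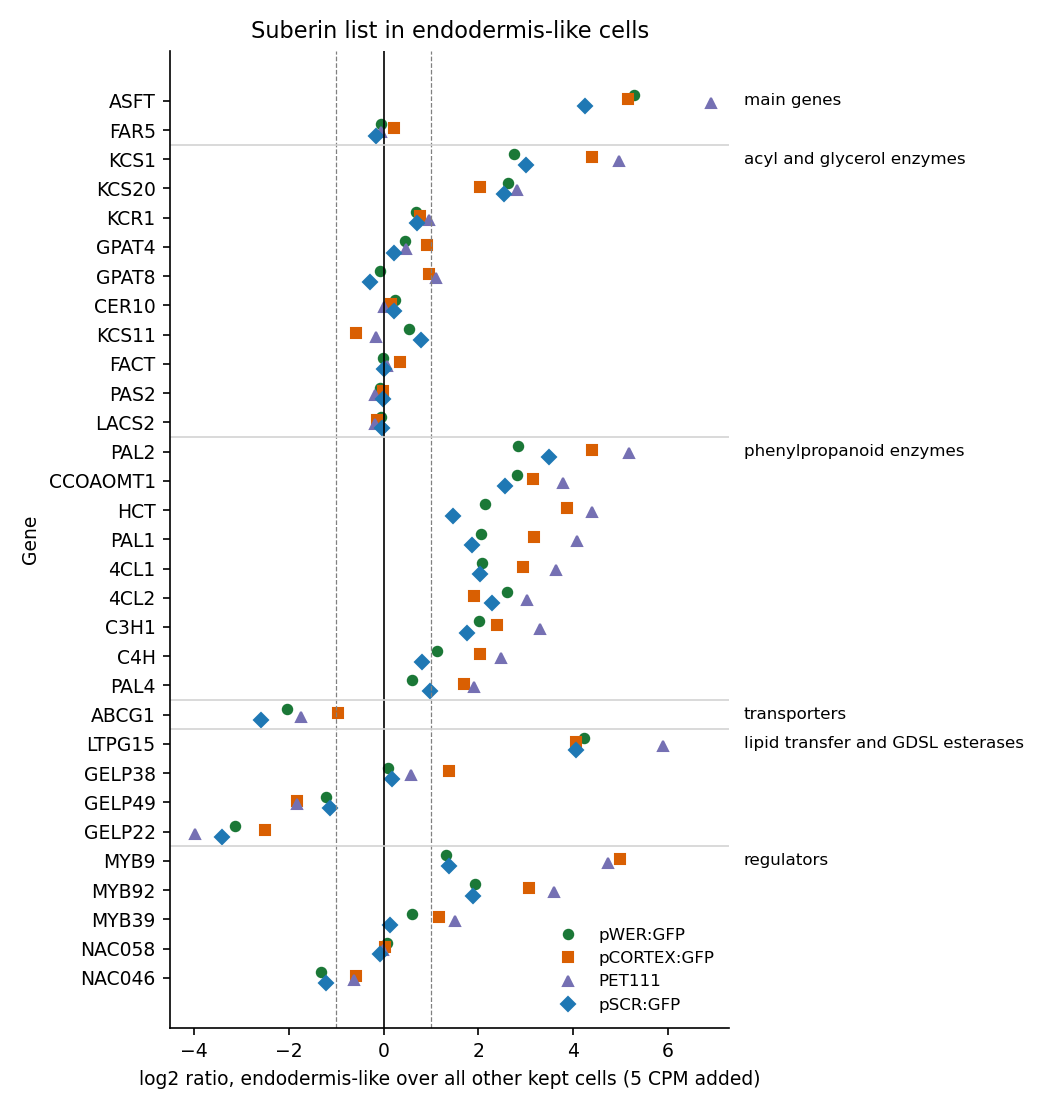
Log2 ratio of endodermis-like over all other kept cells, with 5 CPM added to both sides, for ASFT, FAR5 and the genes of the wider suberin list with at least 100 UMIs, grouped by role; each point is 1 library and the dashed lines mark a 2-fold difference. The phenylpropanoid genes lie to the right in every library, with means from 1.30 for PAL4 to 3.98 for PAL2, while GELP22, GELP49, ABCG1 and NAC046 lie to the left.

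Between libraries, ASFT over kept cells stood at a log2 ratio to the mean of the other 3 libraries of -1.43 for pWER:GFP, 1.35 for pCORTEX:GFP, 0.30 for PET111 and -1.04 for pSCR:GFP. Over endodermis-like cells alone the ratios were -1.61, 1.36, 0.71 and -1.80. The order of the 2 high libraries depended on the naming of clusters: with the unnamed endodermis-led clusters added, pCORTEX:GFP stood at 606 CPM, below the 776 CPM of PET111, and the ratios were -1.30, 0.59, 1.17 and -1.31. The endodermis markers moved with ASFT: their summed level in endodermis-like cells was 11402, 65584, 47666 and 14866 CPM, against 21.7, 261, 49.6 and 117 CPM in other cells. Per 1000 UMIs of these 10 markers, ASFT had 18.95, 15.5, 16.3 and 13.0 UMIs in endodermis-like cells, and 19.3, 23.1, 16.6 and 16.4 UMIs in all kept cells. Over endodermis-like cells pWER:GFP was the highest on that scale, and over all kept cells pCORTEX:GFP was. The sign of the log2 ratio to the other 3 libraries therefore turned in pWER:GFP on both counts (0.35 and 0.049), in pCORTEX:GFP over endodermis-like cells (-0.056, against 0.41 over kept cells) and in PET111 over kept cells (-0.24, against 0.044 over endodermis-like cells).

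Genes that respond to abscisic acid and cold, a list of 7 set beside the libraries because this hormone is known to act on suberin genes, differed between them as well. Their summed level in endodermis-like cells was 5580, 642, 535 and 6989 CPM, against 2349, 338, 135 and 4225 CPM in other cells. COR47 made up most of it, at 4695, 618, 514 and 5596 CPM in endodermis-like cells. The list was thus high in the 2 libraries in which ASFT was low. With 1 library per line, these values cannot be told apart from the line or the batch, and their part in the ASFT levels was not tested.

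Markers of other classes had lower summed levels in endodermis-like cells for most lists. Exceptions were the cortex list in PET111, with 81.0 CPM in endodermis-like cells against 61.1 CPM in other cells, and in pSCR:GFP the non-hair cell list, with 226 CPM against 197 CPM, and the stele and pericycle list, with 46.3 CPM against 36.4 CPM. The median log2 ratio of the non-hair cell list in pSCR:GFP was -0.82 all the same, and that of the stele and pericycle list was -0.04. The hair cell list summed to 89.0, 250, 168 and 124 CPM there, against 382, 459, 302 and 578 CPM in other cells, and the root cap list to 11.3, 27.7, 25.7 and 10.6 CPM, against 92.7, 138, 123 and 117 CPM. The hair cell marker PRX44, a peroxidase gene, went against its list: it was at least 2-fold higher in endodermis-like cells of pCORTEX:GFP (227 CPM, against 34.3 CPM in other cells) and PET111 (149.8 CPM, against 19.7 CPM). The part of these markers in the results was not tested.

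The annotation places AT5G41050 on the strand opposite to ASFT, with overlapping ends. Whether the counting used strand is not given in the sources used here, so reads from the overlap cannot be told apart. AT5G41050 had 32, 129, 33 and 32 UMIs, against 2746, 16956, 5476 and 2605 for ASFT.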

How the data were processed

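The deposited values are counts, whole numbers of UMIs per gene and barcode that were not normalized, from libraries of the 10x Genomics 3′ chemistry per the labels' protocols. Cell Ranger 7.1.0 and Seurat are named in the submitters' processing notes, while their settings, the genome build and the strand setting are not given in the sources used here, so no coordinates or sequences are printed. Gene symbols came from RefSeq TAIR10.1, which matched 32548 of 32834 rows, reporters included.

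Libraries held 208973259, 306361336, 163920194 and 160953229 UMIs. Kept cells of each library were clustered on their own in scanpy 1.11.5 (Python 3.11.15, leidenalg 0.10.2), with Leiden resolution 1, 2000 variable genes, 30 components and 15 neighbours, leaving out the 8 genes and the reporters. A cluster took a class name when at least 3 markers were at least 2-fold higher, with 10 UMIs or more, and the class mean log2 was at least 0.5. It stayed unnamed when its 10 leading genes held more markers of another class, or none of its own in a cluster more than 3-fold shallower than its library. Scrublet marked 0, 0, 1 and 0 cells, which was taken as a failed call, and no doublets were removed.

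CPM carry exact Poisson and shares exact Clopper-Pearson 95% intervals (scipy 1.17.1), which cover counting error only. What a count of 0 is said to allow is instead the floor of 3 over the number of cells or UMIs. It lies below the upper end of the exact interval: for CYP86A1 in pCORTEX:GFP it was 0.0397% of cells, against 0.0488%. Ratios have 5 CPM added, and a gene was called at 2-fold with at least 10 UMIs in the library. A gene under 5 CPM in a class therefore cannot be called higher there. TMM factors came from edgeR 4.0.16. The ratio step was tested on simulated data.

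The members, lists, thresholds and alternatives were chosen with earlier results of these data known. Genes named are the members, the 3 most correlated genes per member, the 10 most correlated on average, endodermis markers, and wider-list genes with at least 100 UMIs; leading genes of clusters, overlapping genes and rarer list genes were named after their values were seen.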

Additional observations from a re-analysis of the deposited data

Results flagged for a closer look

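The barcodes left out by the cell filter also held member UMIs, nearly all of them ASFT. In barcodes with under 2000 UMIs and at most 10% organelle UMIs, the 8 genes together had 35.6 (2377 barcodes), 59.5 (2650), 61.2 (3441) and 17.1 CPM (2115) in the 4 libraries, in the order of the report. In barcodes with over 10% organelle UMIs they had 4.15 (1076 barcodes), 33.1 (1529), 58.4 (2788) and 6.74 CPM (1589). ASFT made up 117 of 118, 182 of 185, 245 of 245 and 53 of 55 member UMIs of the shallow barcodes. These values are above the level that a count of 0 allows, which was between 0.377 and 0.966 CPM. CASP genes were present in the same barcodes, at 674, 784, 1204 and 390 CPM in the shallow ones.

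For 3 genes the log2 ratio of endodermis-like over other cells, with 5 CPM added, had opposite signs in 2 libraries, and the difference was not tested. FAR5 stood at 0.21 in pCORTEX:GFP, from 12 UMIs in 5 cells, and at -0.15 in pSCR:GFP, with 0 UMIs. GPAT8, a glycerol acyltransferase of cutin synthesis, stood at 1.10 in PET111 and at -0.29 in pSCR:GFP. KCS11, an elongase, stood at 0.78 in pSCR:GFP and at -0.57 in pCORTEX:GFP.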

How the results depend on the processing

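The log2 ratio of ASFT in endodermis-like over other cells, as a mean over the libraries, stayed between 5.40 and 5.96 under all other clusterings, class assignments and doublet settings tried. Leaving out 1 library each, the mean stayed between 4.90 and 5.78. Single libraries moved further and in both directions. In pCORTEX:GFP, 1013 against 23.6 CPM became 1124 against 8.54 CPM at Leiden resolution 2. In PET111, 776 against 1.52 CPM became 491 against 3.67 CPM with cells assigned by marker share. This ratio was not computed under other limits of UMIs or organelle share. No paired analysis was possible because each line has 1 library, so the lines share no more than 1 replicate number.

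The comparison of libraries was the result most tied to the scale. The log2 ratio of ASFT over the other 3 libraries was -1.61 over endodermis-like cells alone and 0.35 per endodermis marker UMI there in pWER:GFP, and 1.45 with TMM and -0.056 per marker UMI in pCORTEX:GFP. It was 0.22 with TMM, 0.71 over endodermis-like cells and 0.044 per marker UMI in PET111, and -1.11, -1.80 and -0.38 in pSCR:GFP. Per marker UMI in all kept cells it was 0.049, 0.41, -0.24 and -0.27 in the 4 libraries, and with the unnamed endodermis-led clusters added -1.30, 0.59, 1.17 and -1.31. Both scalings per marker UMI and the added clusters were chosen after seeing the data. The marker scaling divides by markers that differ between libraries in the same direction as ASFT.

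The summed level of the members averaged 31.6 CPM over libraries and 53.7 as a mean over cells, with 22.9 to 37.4 leaving out 1 library. The share of cells with a member UMI averaged 8.34%, or 4.41% after thinning, with 7.08% to 9.60% leaving out 1 library. Members called 2-fold higher numbered 4 over the libraries and 8 with 0 CPM added, which adds CYP86B1 in 3 libraries and FAR5 in pCORTEX:GFP. With 1 CPM added, CYP86B1 joined ASFT in pCORTEX:GFP and PET111 alone. The share of all genes called was computed with 5 CPM added alone. Counts with 1 and 0 CPM added therefore lack that share beside them and say little about the members. The log2 ratio of endodermis-like cells with over those without a CASP UMI was 4.18 in pWER:GFP and 4.84 in pSCR:GFP at Leiden resolution 1. At resolution 0.5 the ASFT levels behind it were 232 against 8.03 CPM in pWER:GFP and 236 against 5.95 CPM in pSCR:GFP. At resolution 2 they were 261 against 9.92 CPM and 244 against 2.50 CPM. The median correlation of member pairs was -0.000815, and -0.00136 in cells of at least 10000 UMIs, with -0.000928 to -0.000685 leaving out 1 library. Cells with 2 members averaged 3.04% of those with 1 or more, and 0.345% after thinning, with 2.61% to 3.52% leaving out 1 library. The mean correlation of ASFT and FAR5 turned positive as Spearman's rho (0.0063) and on raw UMIs (0.00052), values that stay next to 0.

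Depth limits the members other than ASFT: 5 of 8 had 33 UMIs or fewer, and a gene under the floor cannot be called absent.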

Other observations

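Of the wider suberin list, 2, 5, 4 and 3 genes were called higher in root cap-like cells than in the rest. That was 5.71%, 14.7%, 12.5% and 9.68% of those compared, beside 7.69%, 9.09%, 10.1% and 5.98% of all genes. More of the list was called lower: 13, 15, 15 and 13 genes (37.1%, 44.1%, 46.9% and 41.9%), beside 8.47%, 7.06%, 9.79% and 8.12% of all genes. ABCG1, which encodes a transporter of suberin precursors, was called at least 2-fold higher there in all 4 libraries, with a mean of 152 CPM in root cap-like cells against 21.5 CPM in other cells and a mean log2 ratio of 2.61 ± 0.10 (SD, n = 4 libraries). NAC046 followed in all 4, with 19.7 CPM against 3.99 CPM and a mean log2 ratio of 1.45 ± 0.24. GPAT8 was called higher in 3 of 4, with 11.9 CPM against 0.988 CPM. These genes share the class with FAR5, which averaged 4.12 CPM in root cap-like cells against 0.035 CPM in others. The 9 phenylpropanoid genes were at least 2-fold lower in root cap-like cells in all 4 libraries, where 8.47%, 7.06%, 9.79% and 8.12% of all genes compared were, with mean log2 ratios from -3.18 ± 0.24 for CCOAOMT1 to -1.31 ± 0.23 for PAL4.

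Of 9 cuticle genes, paralogues of the members among them, 8, 9, 8 and 8 had the 10 UMIs needed. GPAT8 alone was called higher in endodermis-like cells, in PET111. That was 0%, 0%, 12.5% and 0% of those compared, beside 5.61%, 6.32%, 8.3% and 5.18% of all genes, so the count says little about the list. A non-coding RNA, AT1G04247, overlaps KCS2 in the annotation. It had 9, 21, 11 and 13 UMIs against 6, 3, 4 and 0 for KCS2, and 1, 17, 10 and 1 of these UMIs lay in endodermis-like cells. AT1G04210 overlaps KCS2 as well and had 2103, 2899, 1878 and 1696 UMIs, and since the strand setting is not given in the sources used here, reads of the overlap cannot be told apart.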
